A study of Mus musculus with 2 samples.

Results

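The *Zscan4* array is a run of similar gene copies on mouse chromosome 7, and the 9 copies described here are *Zscan4a* to *Zscan4f* and the pseudogenes *Zscan4-ps1*, *Zscan4-ps2* and *Zscan4-ps3*. They were taken by name from RefSeq, and the peaks were all those with a summit from 10.7 to 11.7 Mb in mm10. That window held 37 of the 51356 peaks of the authors' deposited table. A peak was given to a copy when its summit lay within 5 kb of the copy's annotated span, which placed 23 peaks at the 9 copies and left 14 outside them. The list came from chromatin immunoprecipitation and sequencing of C2C12 cells, an established mouse myoblast line. Every cell carried MMH, a codon-altered chimera of the mouse Dux homeodomains with the carboxy-terminal end of human DUX4, and belonged to 1 clone. All were kept in puromycin and given 2 ug/ml doxycycline for 18 h. One library was precipitated with the anti-DUX4 antisera MO488 and MO489, and 1 control library, from cells of identical genotype and treatment, with an anti-HA antibody by its sample label or an anti-GFP antibody by the design text. Cells without the transgene or without doxycycline were not analysed here.

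*Zscan4* genes encode proteins with a SCAN domain and zinc fingers, and they are switched on in a short burst in the 2-cell embryo and in rare embryonic stem cells that resemble it. Dux, which binds DNA through a pair of homeodomains, is known to activate them in mouse cells, together with MERVL retroelements. Human DUX4 activates human *ZSCAN4* in the same way. In the RefSeq annotation *Zscan4b*, *Zscan4c*, *Zscan4d* and *Zscan4f* are protein-coding, *Zscan4a* is a transcribed pseudogene, and *Zscan4e* and the 3 copies with a ps suffix are pseudogenes.

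The sequences that lay under the strongest peaks are shown first, because the summits of the 4 copies with a sequence lay on or within 7 bp of a short stretch that those 4 share. The RefSeq promoter table (build GRCm38.p6, the same primary assembly as mm10) held a window of 300 bp, from 250 bp before the gene start to 50 bp after it, for the 4 protein-coding copies. *Zscan4a*, *Zscan4e*, *Zscan4-ps1*, *Zscan4-ps2* and *Zscan4-ps3* had no entry. The windows are chr7:10905001-10905300 on the minus strand for *Zscan4b*, chr7:11005495-11005794 on the plus strand for *Zscan4c*, chr7:11166099-11166398 on the minus strand for *Zscan4d* and chr7:11397665-11397964 on the plus strand for *Zscan4f*. Each is written 5′ to 3′ on the strand of its gene, and the capitals mark every match to GATTCAA and to AATTTAATC:
Zscan4b: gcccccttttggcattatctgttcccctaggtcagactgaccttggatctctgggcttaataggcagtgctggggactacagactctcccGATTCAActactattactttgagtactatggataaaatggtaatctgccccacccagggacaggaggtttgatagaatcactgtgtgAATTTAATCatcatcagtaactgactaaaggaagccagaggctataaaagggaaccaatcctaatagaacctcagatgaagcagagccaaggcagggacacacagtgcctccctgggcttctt
Zscan4c: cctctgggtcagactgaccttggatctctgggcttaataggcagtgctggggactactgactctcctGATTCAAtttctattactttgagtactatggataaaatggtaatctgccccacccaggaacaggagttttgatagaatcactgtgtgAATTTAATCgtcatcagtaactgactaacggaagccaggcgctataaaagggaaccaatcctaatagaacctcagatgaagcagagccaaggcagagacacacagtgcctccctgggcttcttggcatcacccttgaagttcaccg
Zscan4d: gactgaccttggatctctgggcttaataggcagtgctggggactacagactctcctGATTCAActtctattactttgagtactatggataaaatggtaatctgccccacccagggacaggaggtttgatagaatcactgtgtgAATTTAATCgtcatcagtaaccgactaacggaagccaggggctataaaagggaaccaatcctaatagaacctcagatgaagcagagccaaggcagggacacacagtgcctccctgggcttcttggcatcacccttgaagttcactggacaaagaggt
Zscan4f: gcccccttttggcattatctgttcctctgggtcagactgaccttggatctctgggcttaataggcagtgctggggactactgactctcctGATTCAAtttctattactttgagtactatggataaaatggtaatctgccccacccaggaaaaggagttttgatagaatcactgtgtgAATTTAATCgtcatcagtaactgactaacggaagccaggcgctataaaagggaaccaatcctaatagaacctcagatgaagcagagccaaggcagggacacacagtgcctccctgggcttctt

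The summit fell inside the window in 4 of these 4 genes, while 1.15% of the 32851 promoter windows in the table held any summit. It stood at base 101 of the *Zscan4b* window, base 63 of *Zscan4c*, base 59 of *Zscan4d* and base 84 of *Zscan4f*, counting from the 5′ end. The capitalised GATTCAA lay 4 bp from the summit in *Zscan4b*, 5 bp in *Zscan4c* and 7 bp in *Zscan4f*, and it held the summit base in *Zscan4d*. The second capitalised stretch, AATTTAATC, began nearer to the gene, and was 77 to 94 bp from the summit. Both were picked after the sequences and the summits were seen, so their closeness to the summits is a description.

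The letters searched before the sequences were available gave less. The 9-base core of the mouse Dux motif, GATTCAATC, matched none of the 4 windows exactly on either strand, against 0.149% of all promoter windows. GATTNAATC also matched none (0.268% of all windows), and neither did the core of the human DUX4 motif, AATCTAATC (0.0944%). The capitalised AATTTAATC of all 4 windows differs from this human core only by a T in place of its first C. How many promoter windows hold the human core with at most 1 difference was not counted. The half-site TGATT was in all 4, but 37.0% of all windows hold it. Read against GATTCAATC and counted from its first base, the stretch at the summit differed by C9T in *Zscan4c* and *Zscan4f*, and by T8C and C9T in *Zscan4b* and *Zscan4d*. On the opposite strand each of the 4 windows also held the core with the single difference A6T, 60 bp from the summit in *Zscan4b*, 68 bp in *Zscan4d*, 75 bp in *Zscan4c* and 77 bp in *Zscan4f*. A core with at most 1 difference was in 3.07% of all windows. A match is a string of letters and does not show a bound site.

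GATTCAA alone was in 2.13% of all promoter windows and AATTTAATC in 0.164%. Across the whole table, a summit lay in 58 of the 699 windows with GATTCAA (8.30%), in 8 of the 54 with AATTTAATC (14.8%) and in 318 of the 32103 with neither (0.991%). Only 5 windows held both, and all 5 held a summit. They were those of the 4 *Zscan4* genes and that of *Tas2r108*, a bitter taste receptor gene, where the pileup was 67 fragments and the enrichment 11.2-fold. The *Zscan4* windows set the choice of the letters, so these shares support nothing beyond their own values.

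The 4 promoter windows were near-copies of each other. Over the bases that aligned, without gaps, *Zscan4c* and *Zscan4f* were 99.3% identical, with 2 differences in 277 bases. *Zscan4b* and *Zscan4d* were 97.7% identical, with 6 differences in 266. Between these pairs the identity was lower, from 95.3% for *Zscan4b* with *Zscan4c* to 97.4% for *Zscan4d* with *Zscan4f*. The more alike *Zscan4c* and *Zscan4f* were also those with the higher pileups, given below, but 4 copies allow no test. The sources used here do not say how reads with more than 1 mapping place were treated, so the division of fragments between such similar copies is uncertain for every pileup of the array.

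A tall peak was called beside one end of every copy. Because the placement of reads between similar copies is not known, whether each copy was itself bound was not tested. The pileup counts the antisera fragments covering a summit. For the strongest peak of each of the 9 copies it ranged from 533 to 924 with a median of 763. The median over every peak of the list was 41. Taking the highest peak per gene, as for the copies, the median over RefSeq genes with a summit within 5 kb was 54. Intervals given with pileups are exact 95% Poisson intervals, and they cover counting error only: with 1 library of each kind there is no replicate error. Fold enrichment, the authors' ratio of pileup to local background, was 107 to 178. A peak within 5 kb was found for 33.4% of the 49943 RefSeq genes on the chromosomes, so the presence of a peak alone would say little. A summit outside the gene but within 1 kb of it, found here at 9 of 9 copies, occurred at 4.25% of RefSeq genes. The copies share sequence and so are not 9 independent cases.

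**Figure D1:**
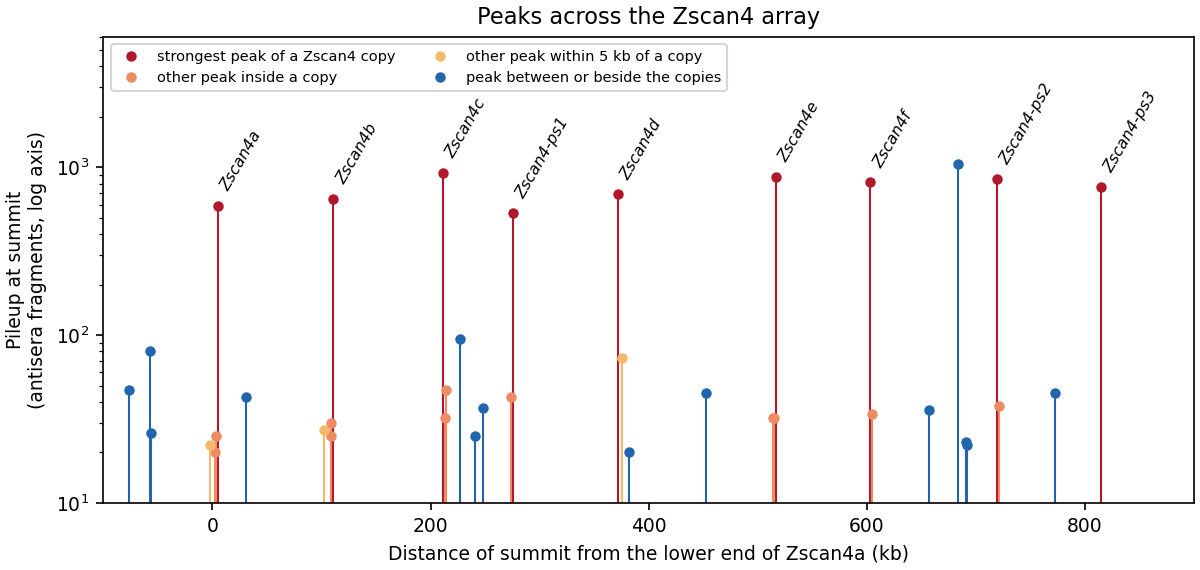
Pileup at the summit (fragments, log axis) of the 37 peaks of the window against distance from the lower end of Zscan4a in kb. Red points are the strongest peak of each copy (533 to 924), orange and yellow points are further peaks in or within 5 kb of a copy, and blue points are the 14 peaks outside the copies, of which 1 stands at 1050 and the others at 20 to 95.

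Among the protein-coding copies, *Zscan4c* had the tallest peak, with 924 fragments (interval 865.4 to 985.6) over a peak of 2085 bp. *Zscan4f* followed with 816 (761 to 874) over 2203 bp. *Zscan4d* had 690 (639 to 743) over 5080 bp, the longest peak of the whole list, and *Zscan4b* had 650 (601 to 702) over 2585 bp. *Zscan4c* and *Zscan4f* overlapped in their intervals, as did *Zscan4d* and *Zscan4b*, but the first pair lay above the second without overlap.

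The transcribed pseudogene *Zscan4a* had 589 fragments (542 to 639) over 1995 bp, the shortest of the 9. *Zscan4e* had 878 (821 to 938) over 2422 bp. *Zscan4-ps2* had 854 (798 to 913) over 2518 bp, *Zscan4-ps3* had 763 (710 to 819) over 3734 bp, and *Zscan4-ps1* had 533 (488.7 to 580.2), the lowest, over 2781 bp. The pseudogenes therefore spanned 533 to 878 and the coding genes 650 to 924, with medians of 763 and 753, so the annotation as gene or pseudogene did not separate them.

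Ordered by pileup, the copies ran *Zscan4c*, *Zscan4e*, *Zscan4-ps2*, *Zscan4f*, *Zscan4-ps3*, *Zscan4d*, *Zscan4b*, *Zscan4a* and *Zscan4-ps1*. None of the 8 neighbouring pairs in this order was apart by its intervals. Over all 36 pairs of copies, the intervals were apart in 23, and the highest pileup was 1.73 times the lowest. In the list of 51356 peaks their ranks by pileup ran from 26 for *Zscan4c* to 96 for *Zscan4-ps1*.

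**Figure D2:**
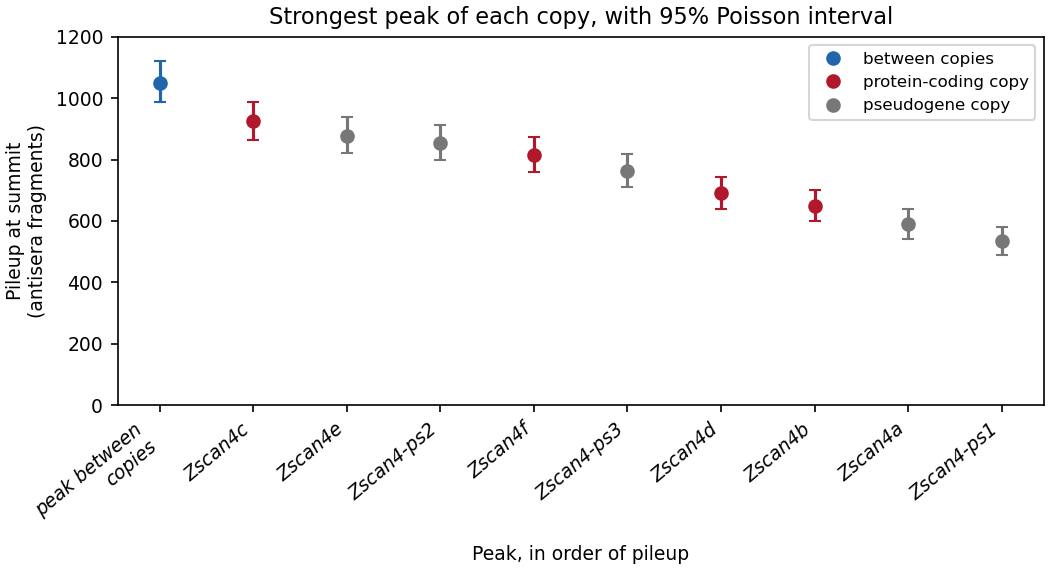
Pileup (fragments) of the strongest peak of each copy, in falling order, with 95% Poisson intervals for counting error; red marks protein-coding copies, grey pseudogenes and blue the tall peak between copies. Coding genes and pseudogenes are mixed along the order, which falls from 924 at Zscan4c to 533 at Zscan4-ps1 in steps within the intervals.

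The local background was low at all of these peaks. It is derived from the control library and the genome-wide mean, and its lowest value in the list, 4.01 fragments, was found at 8 of the 9 strongest peaks. The exception was *Zscan4c*, at 4.18 fragments. Over the window 32 of 37 peaks were at that floor, and the highest value was 5.05. In the whole list 78.0% of peaks were at the floor.

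The strongest peak took a similar place at every copy. Its summit was outside the gene, by 147 bp at *Zscan4-ps2*, 150 bp at *Zscan4b*, 153 bp at *Zscan4e*, 167 bp at *Zscan4f*, 176 bp at *Zscan4-ps3*, 179 bp at *Zscan4a*, 188 bp at *Zscan4c*, 192 bp at *Zscan4d* and 313 bp at *Zscan4-ps1*. For the 4 coding genes this end is the 5′ end, by the strand of their promoter entries. *Zscan4-ps1* was thus the one copy beyond 200 bp, and it also had the lowest pileup. The peak lay at the lower-coordinate end of 4 copies (*Zscan4c*, *Zscan4f*, *Zscan4-ps2* and *Zscan4-ps3*), with pileups of 763 to 924, and at the higher-coordinate end of the other 5, with 533 to 878. Of the latter only *Zscan4e*, at 878, came within the range of the former. This split was made after the values were seen.

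These peaks were long as well as tall, and longer on one side. All 9 were over 1500 bp, a length that 0.403% of the list reached, and all 9 had a pileup over 500, reached by 0.222% of the list. Both limits were set after the values were seen. From the summit to the edge facing away from the gene the distance was 1523 to 1920 bp, a narrow range. Towards the gene it was 428 to 3159 bp, so the differences in length between copies lay mostly on the gene side. The outer distance was the greater at 7 copies, and the inner one was the greater at *Zscan4d* (3159 against 1920 bp) and *Zscan4-ps3* (2103 against 1630 bp). The peak reached 249 bp into the gene at *Zscan4a*, the least, and 2967 bp at *Zscan4d*.

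**Figure D3:**
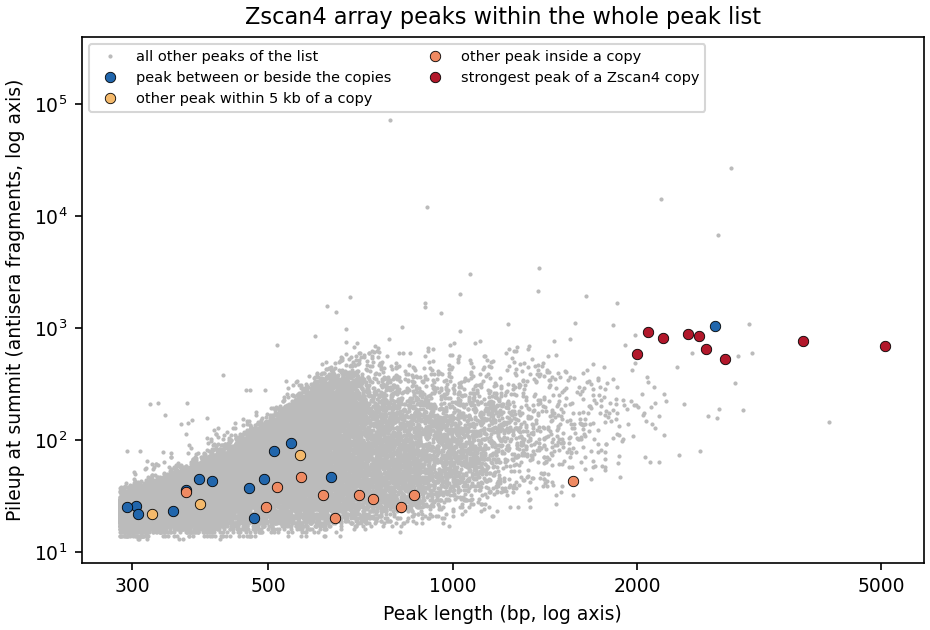
Peak length (bp, log axis) against pileup at the summit (fragments, log axis) for every peak of the list, with the peaks of the array in colour. The strongest peaks of the copies, in red, lie at 1995 to 5080 bp and 533 to 924 fragments, apart from the other peaks of the array except the blue one between copies at 2675 bp and 1050 fragments.

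Inside the genes a second, much weaker layer of peaks recurred at matching places. There were 11 such peaks, in 7 copies, with pileups of 20 to 47 fragments, which is 3.40 to 8.07% of the strongest peak of the same copy. Measured from the gene end beside the strongest peak, all 11 summits fell in one of 2 zones, from 1500 to 2000 bp and from 2400 to 2700 bp into the gene. The zones were drawn around these summits after the positions were seen, so that all 11 fell in them was fixed by the choice.

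In the first zone, *Zscan4c* had a summit 1605 bp into the gene with 32 fragments, *Zscan4f* one at 1640 bp with 34, and *Zscan4-ps2* one at 1719 bp with 38. These 3 have their strongest peak at the lower-coordinate end. The remaining 4 have it at the higher-coordinate end, and their summits stood a little deeper: *Zscan4-ps1* at 1797 bp with 43 fragments, *Zscan4a* at 1876 bp with 25, *Zscan4e* at 1888 bp with 32 and *Zscan4b* at 1897 bp with 30. At *Zscan4d* and *Zscan4-ps3* the strongest peak itself ran into this zone, so that 9 of 9 copies had a called peak over part of it. In 7 of them the summit had served to draw the zone, and *Zscan4d* and *Zscan4-ps3* had no separate inner summit. The count is therefore a description and no test of a recurring site.

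In the second zone, *Zscan4b* had a summit at 2486 bp with 25 fragments, *Zscan4e* at 2501 bp with 32, *Zscan4c* at 2568 bp with 47 and *Zscan4a* at 2595 bp with 20. *Zscan4-ps1*, through its inner peak of 1573 bp, and *Zscan4d*, through its strongest peak, were also covered there, which makes 6 of 9 copies. This count too is a description, since the 4 summits had served to draw the zone. *Zscan4f*, *Zscan4-ps2* and *Zscan4-ps3* had no peak in that zone. All these inner pileups have wide intervals, for example 34.5 to 62.5 for the 47 fragments of *Zscan4c* and 12.2 to 30.9 for the 20 of *Zscan4a*, and a copy without a call may have had a signal below the caller's threshold.

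**Figure D4:**
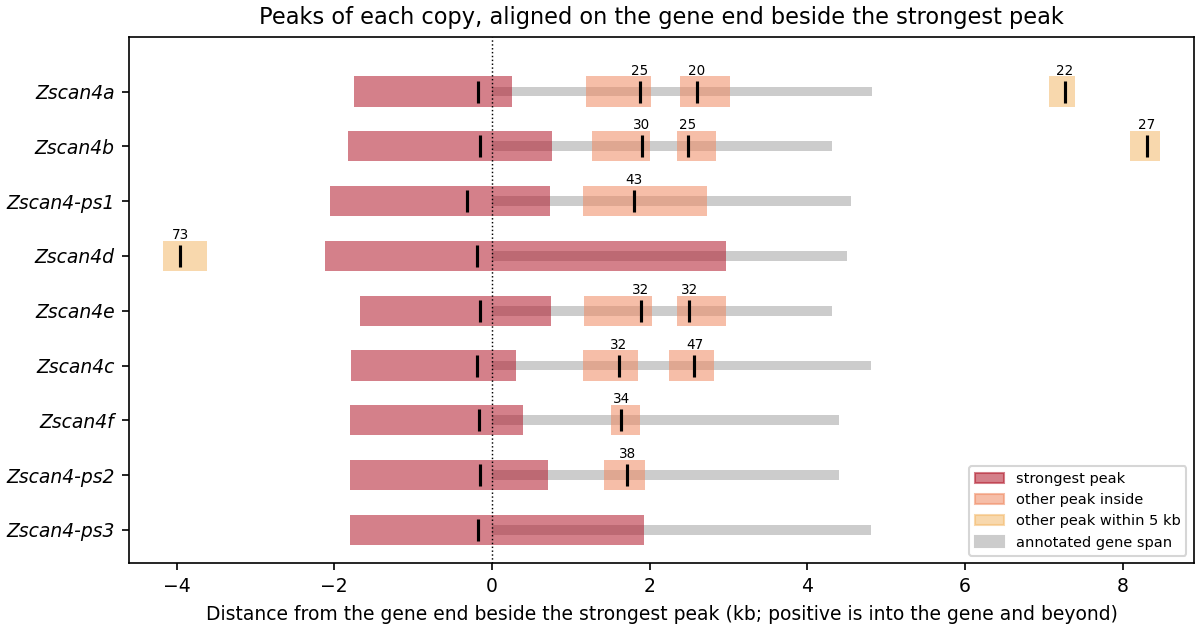
Peaks of each copy aligned on the gene end beside the strongest peak, in kb, with positive values into the gene; bars are peak extents, ticks are summits and small numbers are pileups (fragments) of the weaker peaks. The strongest peaks line up just outside the gene, with outer edges 1523 to 1920 bp from the summit, and weaker peaks recur near 1605 to 1897 bp and 2486 to 2595 bp inside.

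A further 3 peaks lay in the 5 kb flanks. One, with 73 fragments (57.2 to 91.8), was 3952 bp outside *Zscan4d* on the side of its strongest peak. The others were on the far side, 2442 bp from *Zscan4a* with 22 fragments and 3997 bp from *Zscan4b* with 27. No combination of side and distance recurred among the 3, but 3 peaks are too few to show whether any place in the flanks recurs.

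The space outside the copies held 1 peak as tall as theirs. It spanned chr7:11476219-11478893 with its summit at 11477869, and its 1050 fragments (987.4 to 1115.5) were 1.14 times those of *Zscan4c*. The upper bound of *Zscan4c*, 985.6, lay just under its lower bound. Its length was 2675 bp, within the range of the copies, and its summit was 1650 bp from its lower edge and 1024 bp from the higher. The first of these distances is inside the range seen on the outer side of the copies. Both are also inside the range on the gene side, 428 to 3159 bp, so they mark no side. No RefSeq gene lay within 5 kb, and the nearest was the pseudogene *Gm7207*, 9227 bp away. It stood 80.1 kb from the summit of *Zscan4f* and 36.3 kb from that of *Zscan4-ps2*. Neighbouring tall summits of the array were 36.3 to 144 kb apart, with a median of 94992 bp, and the shortest spacing was that between this peak and *Zscan4-ps2*.

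The other 13 peaks outside the copies had pileups of 20 to 95 with a median of 37 fragments, close to the 41 of the whole list, and were 294 to 634 bp long. The next in height were 95 fragments (76.9 to 116) at a summit 10935 bp from *Zscan4c*, and 80 (63.4 to 99.6) inside the pseudogene *Gm5130*, below the array. With the tall one included the median of the 14 was 40. The median of the strongest peaks of the copies, 763, was 19.1 times as high. These measures are unlike, since only the highest peak of each copy was taken, but every peak outside the copies. The weaker peaks inside the copies had a median of 32 fragments and those in their flanks a median of 27, both below 40. The 9 strongest peaks made up 76.4% of the summed pileup of the window and the tall peak between copies a further 12.0%.

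By number, too, peaks were gathered at the copies. The copies with their flanks covered 131 kb and held 17.6 peaks per 100 kb, while the other 869 kb held 1.61 per 100 kb, near the 1.70 of chromosome 7 as a whole. With chromosome 7 cut at each megabase from 3 Mb on, the median was 16 peaks per window, and 5 of 143 windows held 37 or more. The last of these windows may be incomplete. The array window, from 10.7 to 11.7 Mb, was instead placed around the copies and straddles a cut. Its count of 37 is therefore not strictly comparable with theirs.

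Other annotated genes of the window added little. Of 39 genes and pseudogenes that are not *Zscan4* copies, 10 had a summit within 5 kb, against 33.4% of all RefSeq genes. For *Gm18122*, *Gm18123* and *Gm18124* that summit was the strongest peak of *Zscan4c*, *Zscan4f* and *Zscan4-ps2*, at 3616, 3614 and 3491 bp. For *Gm5130* (80 fragments), *Nlrp4b* (47), *Gm5996* (45), *Gm7848* (45), *Gm7203* (43), *Gm7839* (36) and *Gm18204* (20) it was a peak outside the copies. *Nlrp4b*, an oocyte-expressed gene of the NLR family, was the only one of the 3 other protein-coding genes in the window to have one.

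Related genes outside the array were set beside the copies, without a test, since genes and peaks of 1 library are not replicates. Of 12 SCAN-domain genes named *Zscan* with another number, 6 had a summit within 5 kb, 0 had one just outside the gene within 1 kb, and the highest pileups were 141 at *Zscan26*, 83 at *Zscan25* and 60 at *Zscan12*. Among 18 other genes of the 2-cell programme 15 had a summit within 5 kb and 7 had one within 1 kb outside, with a median best pileup of 166. Their highest were 1579 near *Duxf3*, 860 at *Usp17le* and 252 near *Usp17lc*. Over all RefSeq genes, 33.4% had a summit within 5 kb, with a median best pileup of 54, and 4.25% had one within 1 kb outside. The 2-cell list includes *Usp17la* to *Usp17le*, which are counted again in the *Usp17l* family below.

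The place of the peaks was also counted in clustered families with similar copies. A summit just outside the gene within 1 kb was found at 7 of 53 *Obox* genes and pseudogenes, 1 of 6 *Usp17l* and 9 of 48 *Pramel* genes, against 9 of 9 *Zscan4* copies. The share over all RefSeq genes was 4.25%. A best pileup of 500 or more was found at 1, 1 and 2 of the family members, and at 80 of all 49943 RefSeq genes. The highest were 978 at *Obox4-ps28*, 2569 bp from the gene, 860 inside *Usp17le*, and 1097 at *Pramel19*, 2100 bp from the gene. Next came *Pramel18* with 761 and *Pramel24* with 428, *Obox4-ps33* with 264 and *Obox1* with 235, and *Usp17la* with 232. Of all promoter windows in the RefSeq table, 5 held a summit with 500 fragments or more, and 4 of them belonged to *Zscan4* genes; the other was that of *9330104G04Rik*, with 556.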

How the data were processed

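Depth and calling parameters come from the authors' deposited table. Per the submitters' processing notes, reads were handled with BWA and MACS2 on build mm10. Per the file headers, MACS 2.1.0.20151222 compared the antisera library (32659686 fragments, 26253175 after keeping 1 per position) with the control library (40115471, 23412256 after filtering) at a q-value threshold of 0.01. No source used here states the mapping filters. The deposited pileup, a signal, counts fragments at the summit and was a whole number at every peak. The authors' table also holds −log10 values of p and q (as p-value and q-value columns) and a fold enrichment, a ratio, which fits (pileup + 1) divided by (background + 1). The background recovered from it gave the deposited −log10 p within 1% at all 51356 peaks, with the Poisson tail computed on a log scale.

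Copies, lists and zones were chosen with earlier results of these data known. Genes came from RefSeq (GRCm38.p6), with 49943 on the chromosomes. Named features were the 9 copies, the peaks outside them as tall as a copy (or else the 3 highest), at most 12 other genes of the window and the 3 highest genes of each list; further peaks outside the copies, *Tas2r108* and *9330104G04Rik* were named after their values were seen. Promoters were aligned with Biopython 1.88 with free end gaps, and motifs were searched on both strands. Assignment and motif search were tested on simulated data. Python 3.11.15 and scipy 1.17.1 were used. Alternatives were other distances, stricter q-values, overlap in place of the summit and the mean over the peaks of a copy.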

Additional observations from a re-analysis of the deposited data

How the results depend on the processing

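All 9 copies had a peak within 1 kb and within 10 kb, and at −log10 q of 5 or more and of 10 or more. They also had one by 1 bp of overlap between the peak and the copy with its 5 kb flanks. The strongest peak of each copy was unchanged in these 5 settings (45 of 45 values). That outcome was fixed beforehand: these peaks had −log10 q of 900.6 to 1765 and summits 147 to 313 bp from the gene. It is therefore no check of their heights. The peaks outside the copies numbered 11 to 17 and their median pileup was 37 to 45 fragments in the same settings. Limiting them to the stretch from the first to the last copy, added after the data were seen, gave 11 peaks with a median of 37. Taking the mean over all peaks of a copy, in place of the strongest, lowered the median over the copies from 763 to 334.3 fragments, since the weak inner and flank peaks then enter the mean. No paired analysis was possible because there is 1 library per group. With 1 immunoprecipitation, intervals cover counting error only, and differences between near-identical copies also depend on how reads were placed.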

Other observations

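Among 8 short pseudogenes of the window, 758 to 841 bp long, 3 had a peak outside the *Zscan4* copies at a similar distance. A summit within 5 kb was found for 33.4% of all RefSeq genes, so the count of 3 by itself says little. The pseudogenes *Gm5996* and *Gm7848*, each 829 bp long, had a summit 1199 and 1197 bp outside the gene, with 45 fragments at both. *Gm7839*, 758 bp long, had one at 1286 bp with 36 fragments. The summit was on the lower-coordinate side of *Gm5996* and on the higher-coordinate side of *Gm7848* and *Gm7839*. *Gm4903* and *Gm4157*, both 827 bp long, had no summit within 5 kb, the nearest being 20545 and 37547 bp away. For *Gm18122* and *Gm18123*, both 841 bp long, and *Gm18124*, 798 bp long, the nearest summit was the strongest peak of a *Zscan4* copy, 3491 to 3616 bp away. The range of lengths was set after the peaks beside the first 3 were seen, and whether they are copies of one sequence was not tested.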
